A study of Mus musculus with 24 samples.

Results

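Complex I of the mitochondrial respiratory chain is built from many nuclear-encoded proteins whose mouse gene symbols begin with Nduf. All such symbols were taken: 54 are listed in the RefSeq gene table used here, and 46 had a probe on the array whose accession matched. Each of the 46 was measured by its brightest probe, and that probe was well above background on 24 of 24 arrays, so no member was lost to the filter on dim probes. The 46 members are a small share of the 15871 genes tested. They comprise 7 core subunits, 29 accessory subunits, 8 assembly factors and 2 genes, Ndufa4 and Ndufa4l2, whose products are not subunits of the finished complex. The 8 listed genes without a matched probe were Ndufb1, Ndufb4b, Ndufb4c and the pseudogenes Ndufa11b, Ndufa12-ps, Ndufab1-ps, Ndufs5-ps and Ndufs6b, and they were not analysed here.

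The samples were total RNA from the area at risk of the anterior heart wall of male C57BL6/J mice. In every group the left anterior descending coronary artery had been closed for 45 min and then reopened, and tissue was excised after 24, 48 or 168 h of reperfusion. The IGF1 groups had received recombinant insulin-like growth factor 1, a growth hormone mediator that acts through a receptor tyrosine kinase, as a 40 ng/g bolus under the skin at the start of reperfusion and then 1 µg/g per day by pump for 3 days, so delivery had ended before 168 h. The vehicle groups received phosphate-buffered saline with albumin. Each of the 6 groups (IGF1 and vehicle at 24, 48 and 168 h) held 4 arrays. The series' design text calls the control mice sham-operated, whereas the label of every vehicle sample names 45 min of ischemia, and the sample labels were followed.

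Complex I is an L-shaped enzyme of the inner mitochondrial membrane. Its matrix arm takes electrons from NADH and passes them through iron-sulfur clusters to ubiquinone, and its membrane arm pumps protons. The core subunits carry out this catalysis, and those of the membrane arm are encoded by mitochondrial DNA. Accessory subunits surround and stabilise the core, whereas assembly factors bind intermediates and leave before the enzyme is complete. Heart muscle is packed with mitochondria, and complex I is a known source of superoxide when blood flow returns to ischemic myocardium.

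Levels are log2 fluorescence minus each array's 75th percentile, so a level of 5 is a signal 5 doublings above that percentile, and levels of different probes are not compared. A gene was called when its Benjamini-Hochberg adjusted p over all genes tested was under 0.05 in limma's moderated fit to the 24 arrays. The 4 arrays of a group limit the precision. The labels do not name the animals, and the spread behind every p-value is that between these samples, which may be technical. Within groups, arrays correlated across genes with r of 0.983 to 0.993, and genes are not independent replicates. The 24 arrays lay on 4 slides, each scanned on its own. At 24 h each slide carried 1 array of each treatment, whereas the arrays of the other times were spread unevenly. All 12 cardiomyocyte markers examined were well above background on every array. RNA was taken from whole tissue, so fewer cardiomyocytes and less RNA per cardiomyocyte cannot be told apart.

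At 24 h, mRNAs of complex I subunits were higher in IGF1 hearts than in vehicle hearts. Of the 46 members, 22 rose, 0 fell and 24 did not pass the test, against 8.25% of all genes called higher. Differences were positive for 43 of 46 members and had an unadjusted p under 0.05 for 38, against 30.6% of all genes (4856) at that level. Their median was 0.33 on the log2 scale, and the median over all genes was -0.0034. The difference ranged from -0.10 for Ndufab1 to 0.57 for Ndufa10. For 31 of the 46 members, the lowest IGF1 array exceeded the highest vehicle array, a separation that 9.31% of all genes showed. The next paragraphs take the members by role.

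The 7 nuclear core subunits lie in the matrix arm and hold the flavin and the iron-sulfur clusters. Of these, 6 rose, among them Ndufs1, Ndufs3 and Ndufv1, and Ndufv2 had a difference of 0.39 with an adjusted p of 0.0606. All 7 separated the IGF1 from the vehicle arrays, and the differences lay between 0.39 and 0.56 with a median of 0.43. Ndufs1, an iron-sulfur subunit on the electron path, had levels of 6.36, 5.94, 5.93 and 5.99 on the IGF1 arrays, against 5.51, 5.42, 5.43 and 5.60 on the vehicle arrays. The first IGF1 array was the highest and the other 3 were close together, all above every vehicle array. The difference was 0.56 ± 0.15 (SE, n = 4 each), a 1.48-fold rise with limma's adjusted p of 0.0148. Ndufv1, the subunit that binds flavin mononucleotide and oxidises NADH, had levels of 7.37, 7.05, 7.00 and 7.07 on the IGF1 arrays and 6.74, 6.60, 6.65 and 6.79 on the vehicle arrays. Its groups did not overlap either, and the rise was 1.34-fold, or 0.43 ± 0.12 (SE) on the log2 scale, with limma's adjusted p of 0.0217.

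Of the 9 accessory subunits of the matrix arm, 7 rose (Ndufa2, Ndufa6, Ndufa7, Ndufa9, Ndufa12, Ndufs4 and Ndufv3). The median difference of the 9 was 0.35, and Ndufa5 and Ndufs6 had differences of 0.30 and 0.33 with adjusted p of 0.0912 and 0.0647. Ndufa9, which supports the junction of both arms, had the largest difference of the 9, at 0.49 ± 0.14 (SE, limma's adjusted p = 0.0220). Ndufs4, whose loss in mice causes a disease resembling Leigh syndrome, had levels of 5.16, 4.68, 4.93 and 4.64 on the IGF1 arrays, against 4.69, 4.33, 4.51 and 4.47 on the vehicle arrays. The groups overlapped, since replicate 1 of vehicle exceeded replicates 2 and 4 of IGF1. The difference was 0.35 ± 0.12 (SE, 1.28-fold) and passed the test narrowly with limma's adjusted p of 0.0475.

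Of the 19 accessory subunits of the membrane arm, 8 rose, and the median difference of the 19 was 0.33. The 8 were Ndufa1, Ndufa3, Ndufa8, Ndufa10, Ndufa13, Ndufb2, Ndufb5 and Ndufc2, and 18 of the 19 had an unadjusted p under 0.05. Ndufa10, an accessory subunit with a nucleoside kinase-like fold, had levels of 6.11, 5.79, 5.69 and 5.64 on the IGF1 arrays, against 5.37, 5.16, 5.24 and 5.19 on the vehicle arrays. All IGF1 arrays were above all vehicle arrays, again with the first IGF1 array highest. At 0.57 ± 0.13 (SE, 1.48-fold) it had the largest difference of the 46 members, with limma's adjusted p of 0.00782. A second, dimmer probe of Ndufa10 gave 0.55. Ndufb8, a subunit often blotted as a marker of assembled complex I, had levels of 7.15, 6.90, 6.87 and 6.90 on the IGF1 arrays and 6.82, 6.56, 6.50 and 6.77 on the vehicle arrays. The groups did not overlap, yet the difference of 0.29 ± 0.13 (SE) was not called (limma, adjusted p = 0.147), and the second, dimmer probe of this gene gave 0.15. The smallest difference in this arm was 0.11 for Ndufb6 (limma, adjusted p = 0.667).

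Ndufab1, the mitochondrial acyl carrier protein that sits in both arms and also serves fatty acid and lipoic acid synthesis, was not called at 24 h. Its levels were 0.52, 0.31, 0.50 and 0.29 on the IGF1 arrays and 0.53, 0.64, 0.41 and 0.47 on the vehicle arrays, which overlapped. The difference was -0.10 ± 0.12 (SE, limma's adjusted p = 0.594), with a 95% interval from -0.35 to 0.14. It was the only one of the 36 subunits measured with a difference below 0. Ndufab1 had only 1 probe, with a mean level of 0.33 over the arrays, so no second probe could be set beside it.

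Ndufa4, first described in complex I and now placed in cytochrome c oxidase, had levels of 6.43, 6.02, 6.22 and 6.04 on the IGF1 arrays and 5.94, 5.62, 5.86 and 5.71 on the vehicle arrays. The groups were separate, and the difference of 0.40 ± 0.12 (SE, 1.32-fold) was called (limma, adjusted p = 0.0281). Ndufa4l2, a paralog induced by hypoxia-inducible factor, had levels of 2.46, 2.44, 2.32 and 2.41 on the IGF1 arrays and 2.40, 2.20, 1.78 and 2.40 on the vehicle arrays. Its groups overlapped, and replicate 3 of vehicle was low. The difference of 0.22 ± 0.12 (SE) did not pass (limma, adjusted p = 0.242).

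None of the 8 assembly factors passed limma's adjusted threshold at 24 h, against 8.25% of all genes called higher. An unadjusted p under 0.05 was reached by 3 of 8, against 30.6% of all genes. With 8 genes, these counts do not set the assembly factors apart from all genes. Their median difference was 0.20 and the lowest adjusted p was 0.120. Ndufaf1, a chaperone of membrane arm intermediates, had levels of 2.60, 2.06, 2.31 and 2.08 on the IGF1 arrays and 2.15, 1.79, 1.92 and 2.05 on the vehicle arrays. The groups overlapped, and the difference of 0.29 ± 0.12 (SE) was the largest among the assembly factors (limma, adjusted p = 0.124). Ndufaf5, which in human cells hydroxylates an arginine of the core subunit NDUFS7, had levels of 1.34, 1.00, 1.11 and 1.02 on the IGF1 arrays and 0.91, 0.85, 0.83 and 0.93 on the vehicle arrays. All 4 IGF1 arrays were above the vehicle arrays, the first by the widest margin, and the difference was 0.23 ± 0.10 (SE, limma's adjusted p = 0.120). A dimmer probe of Ndufaf5 gave -0.03. Ndufaf8, the partner of NDUFAF5 in human cells, had levels of 0.35, 0.22, 0.38 and 0.17 on the IGF1 arrays and 0.53, 0.18, 0.22 and 0.38 on the vehicle arrays. They overlapped, with a difference of -0.05 ± 0.11 (SE, limma's adjusted p = 0.822).

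Averaged per array, the core subunits had a level of 6.26 ± 0.19 in IGF1 hearts and 5.80 ± 0.11 in vehicle hearts at 24 h (SD, n = 4 each). The 8 assembly factors averaged 1.44 ± 0.13 in IGF1 hearts and 1.28 ± 0.08 in vehicle hearts. The core average minus the assembly factor average, whose change between groups alone has a meaning, was 4.72 to 4.93 on the IGF1 arrays and 4.45 to 4.59 on the vehicle arrays. These ranges did not overlap. At 48 h the range was 4.33 to 4.44 on the IGF1 arrays and 4.29 to 4.45 on the vehicle arrays. At 168 h it was 4.60 to 4.67 and 4.64 to 4.80. The vehicle arrays of 168 h thus overlapped the IGF1 arrays of 24 h, and a wide gap was not particular to IGF1 hearts. No test is given for these averages because the genes were chosen with earlier results known.

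**Figure D1:**
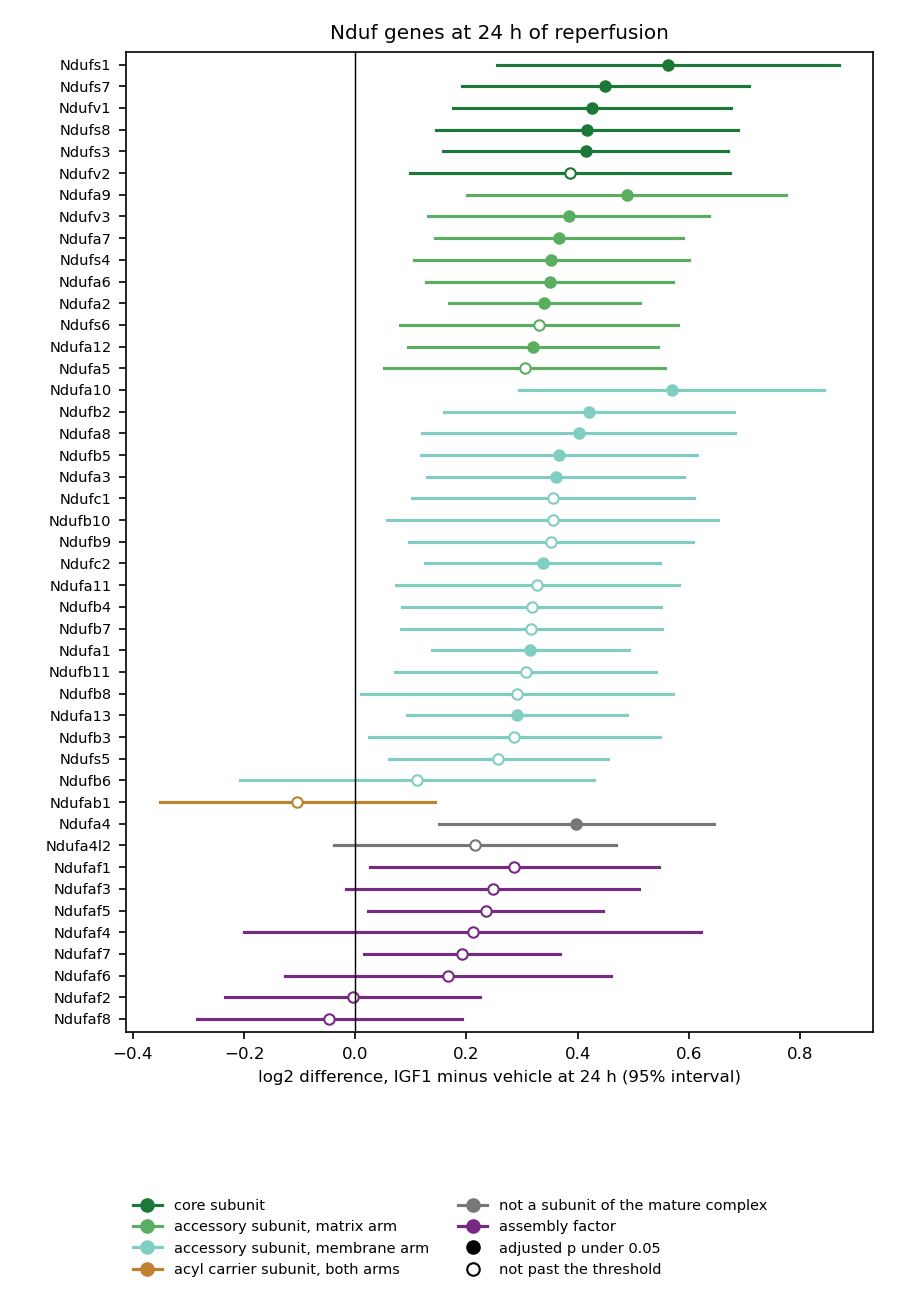
Log2 difference of the members described here between IGF1 and vehicle hearts at 24 h, grouped by role, with the 95% interval of limma's fit (n = 4 arrays each) and filled points for called members. The core subunits lie between 0.39 and 0.56, whereas the assembly factors lie between -0.05 and 0.29 and Ndufab1 at -0.10.

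Each slide held 1 IGF1 and 1 vehicle array of 24 h, so the comparison could be repeated within slides. The members' median difference was 0.46, 0.35, 0.37 and 0.16 within slides 1 to 4, with 44, 42, 46 and 41 of the 46 members positive. The sign was thus the same on all slides and the size was smallest on slide 4. The core subunits' median was 0.63, 0.45, 0.49 and 0.27, and the assembly factors' median was 0.34, 0.10, 0.25 and 0.03. On all 4 slides 39 of the 46 members (84.8%) were higher in IGF1 hearts, including 7 of 7 core subunits but 4 of 8 assembly factors. Over all genes the share was 18%. With the slide as a block, 32 members were called.

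How many members passed depended on single arrays. Without the first IGF1 array at 24 h, 2 members were called. Without vehicle replicate 2, 3 or 4 at 24 h, 4, 7 or 14 were called. In the fit of these 8 arrays alone 3 members passed, and without the filter on dim probes, which raises the number of genes adjusted over, 10 passed. Of the members whose levels are given, Ndufs4, Ndufa4, Ndufv1 and Ndufs1 lost their call in 5, 4, 2 and 1 of the 8 fits without a single array, and Ndufa10 in 0. The median difference of the members stayed between 0.25 and 0.38 whichever array was left out.

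**Figure D2:**
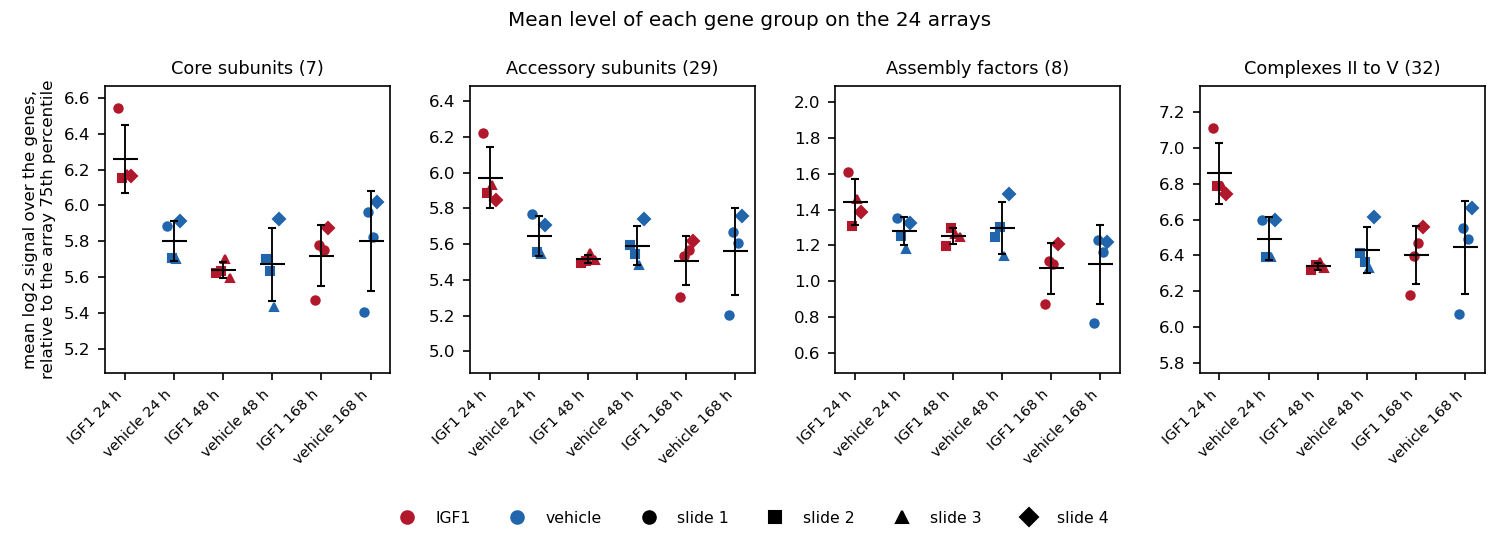
Mean log2 level (vertical) of the 7 core subunits, the 29 accessory subunits, the 8 assembly factors and 32 genes of complexes II to V on each of the 24 arrays, by treatment and time, with symbols for slides and bars for group mean and SD. At 24 h the core means of the IGF1 arrays (6.15 to 6.54) lie above those of the vehicle arrays (5.70 to 5.91), whereas at 48 and 168 h the treatments overlap.

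Other genes of the respiratory chain were measured on the same arrays. Of 33 genes of complexes II to V, 32 were measured, of which 15 rose and 0 fell, all 32 were positive, and the median difference was 0.36. Among all genes the share called higher was 8.25%. The smallest p there belonged to Cox4i1, a cytochrome c oxidase subunit, with a difference of 0.37 (limma, adjusted p = 0.00931), and Atp5pb, an ATP synthase subunit, with one of 0.43 (limma, adjusted p = 0.0128). The mean of the complex I subunits minus that of complexes II to V was -0.83 ± 0.02 in IGF1 hearts and -0.82 ± 0.02 in vehicle hearts (SD, n = 4 each), and the groups overlapped. Of 12 other assembly factors of complex I that were measured, 1 rose: Foxred1, an oxidoreductase-like protein, by 0.50 (limma, adjusted p = 0.0195). A count of 1 in 12 is near the 8.25% of all genes called higher and does not set this list apart. The median of these 12 was 0.23, close to the 0.20 of the Ndufaf genes. The next smallest p in that list belonged to Tmem70, with a difference of 0.36 and an adjusted p of 0.0714. Of 12 transcriptional regulators of mitochondrial genes, 4 rose and 0 fell, against the same 8.25% of all genes called higher, with a median of 0.34. Ppargc1b, a coactivator of mitochondrial gene expression, had a difference of 0.67 (limma, adjusted p = 0.0108), and Esrrb, an orphan nuclear receptor, one of 0.63 (limma, adjusted p = 0.0302). The subunits encoded by mitochondrial DNA were not analysed here.

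Markers of cell types moved in the same comparison. Of the 12 cardiomyocyte markers, 6 were higher in IGF1 hearts and 0 lower at 24 h, with a median difference of 0.34. The markers' differences ran from -0.56 to 0.79, and 10 of the 12 were positive. Their mean level was 6.62 to 6.93 on the IGF1 arrays and 6.27 to 6.67 on the vehicle arrays. Of 7 macrophage and monocyte markers 4 were lower, with a median of -0.60, and of 5 T and B cell markers 4 were lower, with a median of -1.19. Of 4 smooth muscle markers 1 was lower, with a median of -0.30. Of 7 neutrophil, 7 fibroblast and 6 endothelial markers, 0 were called in either direction. Over all genes, 8.25% were called higher and 1283 of 15871 lower. Relative to the cardiomyocyte markers, the mean of the complex I subunits was -0.69 ± 0.05 in IGF1 hearts and -0.76 ± 0.11 in vehicle hearts (SD, n = 4 each), and the groups overlapped. Within slides 1 to 4 the markers' median difference was 0.43, 0.48, 0.31 and 0.0010, beside the core subunits' 0.63, 0.45, 0.49 and 0.27. The markers' median was thus above that of the core subunits on slide 2 and below it on the other 3 slides. The part of cell composition in the members' result was not tested.

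**Figure D3:**
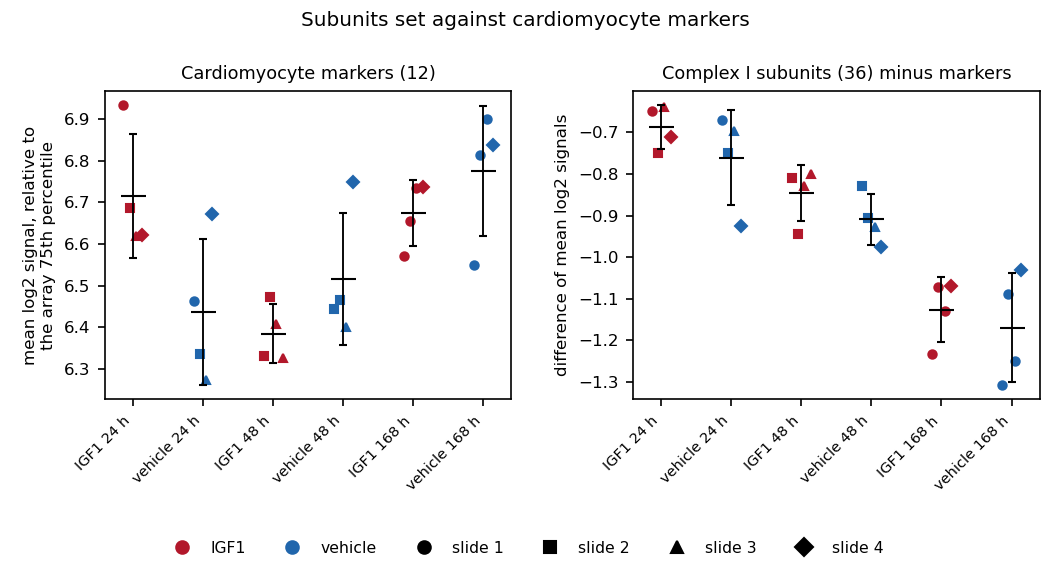
Mean log2 level of 12 cardiomyocyte markers (left) and mean of the 36 complex I subunits minus that of the markers (right) on each of the 24 arrays, by treatment and time, with symbols for slides and bars for group mean and SD. The difference averages -0.69 in IGF1 hearts and -0.76 in vehicle hearts at 24 h, and it is lowest at 168 h, at -1.13 in IGF1 hearts and -1.17 in vehicle hearts.

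Since many members moved together, their promoters were searched for motifs of known regulators of respiratory genes. RefSeq promoters of 300 bases, from 250 before to 50 after the gene start on GRCm38.p6, were found for 40 of the 46 members. The motif GCATGCGC of nuclear respiratory factor 1 (NRF1), searched on both strands, lay in 5 of the 40 genes (12.5%): Ndufa6, Ndufa8, Ndufa11, Ndufaf4 and Ndufaf5. It lay in 2.71% of all 32851 promoters. The motif CCGGAAG of the ETS factor GABP, searched on both strands, lay in 6 of the 40 genes (15%): Ndufs3, Ndufs8, Ndufb6, Ndufb7, Ndufaf1 and Ndufaf8. It lay in 8.86% of all promoters. The estrogen-related receptor motif TCAAGGTCA, also on both strands, lay in 0 of 40 genes and in 0.423% of all promoters. No match of one motif overlapped a match of another. Of the 19 genes called at 24 h that had a promoter, 2 held the NRF1 and 2 the GABP motif, and each was held by 2 of the 7 assembly factors with a promoter.

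The following sequences are the 200 bases before the gene start, written 5′ to 3′ in the direction of the gene, with motif matches in capitals. Ndufa10 (chr1:92473759-92473958, minus strand) is shown as the member with the largest difference at 24 h, Ndufs3 (chr2:90904722-90904921, minus strand) as a core subunit that rose and holds a GABP match, and Ndufa6 (chr15:82354292-82354491, minus strand) as a matrix arm subunit that rose and holds an NRF1 match. Ndufab1 (chr7:122101849-122102048, minus strand) is shown as the subunit whose difference was below 0. Ndufaf1 (chr2:119662835-119663034, minus strand) and Ndufaf4 (chr4:24897883-24898082, plus strand) are assembly factors that were not called at 24 h and hold a GABP and an NRF1 match. In Ndufaf4 the capitals cover matches on both strands of the nearly palindromic motif.
Ndufa10: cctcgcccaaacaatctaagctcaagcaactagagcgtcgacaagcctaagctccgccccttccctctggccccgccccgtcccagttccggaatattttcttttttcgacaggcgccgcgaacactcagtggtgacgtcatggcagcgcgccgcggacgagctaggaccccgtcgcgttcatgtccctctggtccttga
Ndufs3: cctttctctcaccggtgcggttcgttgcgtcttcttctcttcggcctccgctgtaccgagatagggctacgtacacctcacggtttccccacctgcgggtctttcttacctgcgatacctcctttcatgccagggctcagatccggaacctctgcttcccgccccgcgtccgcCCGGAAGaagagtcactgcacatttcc
Ndufa6: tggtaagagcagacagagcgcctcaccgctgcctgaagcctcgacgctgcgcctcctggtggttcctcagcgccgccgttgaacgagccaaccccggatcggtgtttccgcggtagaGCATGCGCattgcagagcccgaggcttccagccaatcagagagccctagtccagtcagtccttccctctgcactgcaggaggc
Ndufab1: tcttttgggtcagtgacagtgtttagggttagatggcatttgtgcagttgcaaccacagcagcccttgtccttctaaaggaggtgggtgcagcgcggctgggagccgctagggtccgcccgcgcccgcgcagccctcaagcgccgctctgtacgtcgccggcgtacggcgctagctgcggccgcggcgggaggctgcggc
Ndufaf1: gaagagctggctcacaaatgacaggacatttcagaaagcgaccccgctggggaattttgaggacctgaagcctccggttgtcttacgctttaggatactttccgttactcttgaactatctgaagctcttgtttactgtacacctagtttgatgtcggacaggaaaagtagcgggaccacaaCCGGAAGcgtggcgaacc
Ndufaf4: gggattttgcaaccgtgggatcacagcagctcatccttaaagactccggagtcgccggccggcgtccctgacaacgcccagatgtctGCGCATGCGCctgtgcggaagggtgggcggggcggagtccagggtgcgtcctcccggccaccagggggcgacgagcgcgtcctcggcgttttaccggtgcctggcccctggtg
The Ndufa10 and Ndufab1 windows hold none of the motif letters searched. Genes with the NRF1 motif had differences of 0.21 to 0.40 at 24 h and those with the GABP motif -0.05 to 0.42, so motif holders lay both among the members that rose and among those that did not pass. A match is a string of letters and not a shown binding site.

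At 48 and 168 h no member was called between treatments. At 48 h, 0 of 46 members passed limma's test in either direction, against 0.0126% of all genes (2 of 15871). The members' median was -0.06 and their range was -0.30 to 0.18, and 1 member, Ndufaf8, had an unadjusted p under 0.05 (limma, adjusted p = 0.454). Ndufaf8 had levels of -0.11, 0.019, 0.12 and -0.027 on the IGF1 arrays and 0.029, 0.16, 0.48 and 0.54 on the vehicle arrays, which overlapped because the first vehicle array was low. Ndufs1 had levels of 5.31, 5.36, 5.37 and 5.31 on the IGF1 arrays and 5.34, 5.25, 4.92 and 5.62 on the vehicle arrays at 48 h. The 4 IGF1 arrays were close together and lay inside the range of the vehicle arrays. Ndufa10 had 5.10, 5.21, 5.25 and 5.15 on the IGF1 arrays and 5.25, 5.08, 4.82 and 5.18 on the vehicle arrays, which overlapped as well.

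At 168 h, 0 of 46 members passed, against 0% of all genes (0 of 15871). No member and 637 genes had an unadjusted p under 0.05. The members' median was -0.05 and their range was -0.13 to 0.04, and for all 46 the IGF1 and vehicle arrays overlapped. The median was 0.02 without the first IGF1 array and 0.0088 without the fourth vehicle array. Ndufs1 had levels of 5.10, 5.53, 5.45 and 5.60 on the IGF1 arrays and 5.13, 5.67, 5.56 and 5.85 on the vehicle arrays. Ndufa10 had 4.92, 5.35, 5.28 and 5.25 on the IGF1 arrays and 4.86, 5.51, 5.33 and 5.40 on the vehicle arrays. In both genes and both treatments the first array was the lowest.

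Whether the effect of IGF1 changed with time was tested as a difference of differences. The effect at 168 h minus that at 24 h was below 0 and called for 4 members, against 4.69% of all genes. It was -0.69 ± 0.21 for Ndufs1 (SE, limma's adjusted p = 0.0386) and -0.65 ± 0.19 for Ndufa10 (SE, adjusted p = 0.0323). It was -0.45 ± 0.12 for Ndufa2, a small matrix arm subunit (SE, adjusted p = 0.0201), and -0.40 ± 0.12 for Ndufa1, a membrane arm subunit (SE, adjusted p = 0.0400). The members' median was -0.39 and 31 had an unadjusted p under 0.05, as had 4295 of 15871 genes. Over the 16 fits without a single array, these calls were lost in 9 for Ndufs1, 6 for Ndufa10, 0 for Ndufa2 and 11 for Ndufa1. The call count moved between 1 and 34 when single arrays were left out, the 34 coming without the first vehicle array of 168 h. It was 1 without vehicle replicate 2 or IGF1 replicate 1 of 24 h, vehicle replicate 2, 3 or 4 of 168 h, or IGF1 replicate 1 of 168 h. It was 19 with array weights, 10 with the slide as a block and 0 when only the 4 groups concerned were fitted. For the effect at 48 h minus that at 24 h, 0 of 46 members passed (limma), against 0.0693% of all genes (11 of 15871). There the median was -0.42, and 34 members had an unadjusted p under 0.05, as had 2774 genes.

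The members were next followed over time within each treatment. In IGF1 hearts, 33 of 46 members were lower and 2 higher at 48 h than at 24 h, against 19.3% of all genes lower and 17.2% higher. The median difference was -0.49, and for 38 members all 48 h arrays lay below all 24 h arrays, against 19.3% of all genes (3057). This comparison uses the same 24 h IGF1 arrays as the comparison with vehicle at 24 h, so both share the high values of those arrays. All 7 core subunits and 9 of 9 matrix arm subunits were lower, as were 15 of 19 membrane arm subunits. Of the 8 assembly factors 1 was called lower, and 7 had a difference below 0, with a median of -0.18. With 8 genes, that call count does not set the assembly factors apart from all genes. Ndufs4 had 4.29, 4.36, 4.43 and 4.42 at 48 h, against 5.16, 4.68, 4.93 and 4.64 at 24 h, a difference of -0.48 ± 0.12 (SE, adjusted p = 0.00378). Ndufb8 had 6.41, 6.47, 6.46 and 6.42 at 48 h, against 7.15, 6.90, 6.87 and 6.90 at 24 h. Its difference of -0.51 ± 0.13 (SE, adjusted p = 0.0055) was not seen by the second, dimmer probe, which gave 0.13. Within slides 2 and 3, which carried both times, the members' median was -0.42 and -0.44.

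The 2 members that were higher at 48 h than at 24 h in IGF1 hearts were Ndufab1 and Ndufa4l2. Ndufab1 had levels of 0.80, 0.85, 0.82 and 0.69 at 48 h, against 0.52, 0.31, 0.50 and 0.29 at 24 h. The groups did not overlap, and the difference was 0.38 ± 0.12 (SE, limma's adjusted p = 0.0156). Ndufa4l2 had levels of 2.91, 2.52, 2.73 and 2.79 at 48 h, against 2.46, 2.44, 2.32 and 2.41 at 24 h, a separated rise of 0.33 ± 0.12 (SE, limma's adjusted p = 0.0390). The call was lost in 7 of 8 fits without a single array (all but that without IGF1 replicate 2 of 48 h), with no filter and with the authors' table, with an adjusted p of up to 0.123. Among the assembly factors, Ndufaf4, which binds early matrix arm intermediates, was the one called lower, with 1.83, 1.82, 1.77 and 1.94 at 48 h against 2.42, 2.01, 2.29 and 2.74 at 24 h. That is a difference of -0.52 ± 0.20 (SE, limma's adjusted p = 0.0428). It too was lost in 7 of 8 fits without a single array (all but that without IGF1 replicate 2 of 24 h), and with quantile normalization, no filter or the slide block, with an adjusted p of up to 0.146.

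In IGF1 hearts at 168 h against 24 h, 39 of 46 members were lower and 1 was higher, against 31.9% of all genes lower and 26.3% higher. The median was -0.48, and the 24 h IGF1 arrays are again those of the comparison with vehicle. Here 5 of 8 assembly factors were lower too, led by Ndufaf4, with 0.94, 1.40, 1.27 and 1.80 at 168 h against 2.42, 2.01, 2.29 and 2.74 at 24 h. Its groups were separate, and its difference of -1.01 ± 0.20 (SE, limma's adjusted p = 0.000175) exceeded that of every core subunit, which ran from -0.63 to -0.48. Ndufaf7, a mitochondrial methyltransferase needed for complex I assembly in human cells, had 1.81, 1.99, 1.93 and 2.09 at 168 h against 2.46, 2.37, 2.34 and 2.44 at 24 h, a difference of -0.45 ± 0.08 (SE, limma's adjusted p = 0.000113). With quantile normalization 20 members were lower and 1 higher, and the median was -0.24. Within slide 1 the median was -0.76, and within slide 4 it was -0.24. Between 48 and 168 h in IGF1 hearts, 3 members were lower and 0 higher at 168 h, against 25.4% of all genes lower and 23.8% higher. These were Ndufab1 by -1.03 ± 0.12, Ndufaf7 by -0.30 ± 0.08 and Ndufaf4 by -0.49 ± 0.20 (SE, limma's adjusted p = 6.574e-07, 0.00527 and 0.0469). The Ndufaf4 call was lost in 7 of 8 fits without a single array (all but that without IGF1 replicate 4 of 168 h), with quantile normalization and with no filter. Under quantile normalization the split was 2 lower and 10 higher. These 2 groups shared no slide, so slide and time cannot be told apart there.

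**Figure D4:**
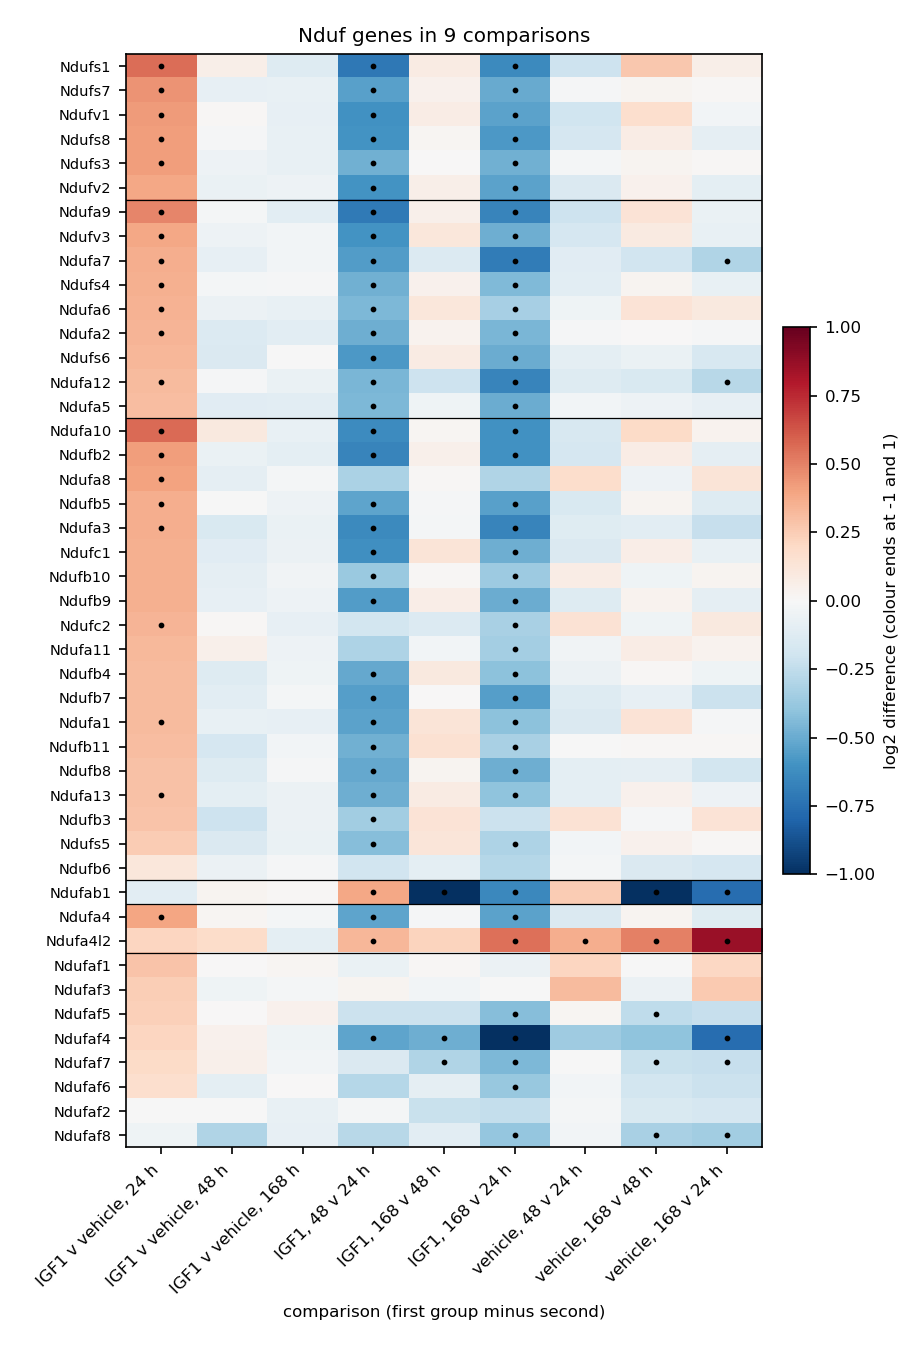
Colour map of log2 differences of the members described here (down the page, by role) in 9 comparisons of treatment at each time and of time within each treatment, red for higher and blue for lower in the first-named group, with dots for calls. IGF1 against vehicle at 24 h is mostly red (median of all members 0.33) and 48 h against 24 h in IGF1 hearts mostly blue (median -0.49), whereas vehicle hearts are pale at 48 h against 24 h (median -0.08).

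In vehicle hearts no core subunit was called between any of the times. At 48 h against 24 h, 1 of 46 members was higher and 0 were lower, against 11.6% of all genes higher and 11.1% lower. The 7 core subunits had differences of -0.21 to -0.01, none called by limma, with 0 of 7 at an unadjusted p under 0.05. Ndufs1 had 5.34, 5.25, 4.92 and 5.62 at 48 h, against 5.51, 5.42, 5.43 and 5.60 at 24 h. The 48 h arrays were spread more widely and replicate 3 was the lowest. At 168 h against 48 h, 1 member was higher and 4 were lower, against 25.8% of all genes higher and 27.6% lower. Without the first or the second vehicle array of 48 h, 3 members were called. The core subunits were all slightly positive, between 0.03 and 0.30, and 0 of 7 were called. At 168 h against 24 h, 1 member was higher and 6 were lower, against 29.2% of all genes higher and 31% lower, and without the first vehicle array of 24 h 4 members were called in all. Quantile normalization changed these splits to 20 higher and 2 lower at 168 h against 48 h, and to 13 higher and 3 lower at 168 h against 24 h. The members' median at 168 h against 24 h was -0.07, but 0.16 under quantile normalization and 0.05 without the first vehicle array of 168 h. With normexp the split at 168 h against 48 h was 1 and 1. Directions of small changes in vehicle hearts at 168 h thus depend on the scaling and on single arrays.

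The member that was higher in all 3 of these comparisons was Ndufa4l2. In vehicle hearts its levels were 2.40, 2.20, 1.78 and 2.40 at 24 h, 2.74, 2.51, 2.43 and 2.55 at 48 h and 3.05, 2.99, 3.16 and 3.04 at 168 h. The 3 groups were ordered by time without overlap. The difference was 0.36 ± 0.12 at 48 h against 24 h (SE, limma's adjusted p = 0.0354) and 0.50 ± 0.12 at 168 h against 48 h (SE, adjusted p = 0.00162). The call at 48 h against 24 h was lost when any of vehicle replicates 2 or 3 of 24 h or replicates 1, 2 or 4 of 48 h was left out. The difference came to 0.87 ± 0.12 (1.82-fold) at 168 h against 24 h (SE, adjusted p = 3.407e-06). With the slide as a block the difference at 168 h against 48 h was 0.35 and its adjusted p 0.0552. In IGF1 hearts at 168 h its levels were 3.10, 2.73, 3.16 and 2.86, overlapping the vehicle arrays of that time.

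The largest difference between 168 and 48 h in vehicle hearts belonged to Ndufab1, in the opposite direction. Its levels were 0.53, 0.64, 0.41 and 0.47 at 24 h, 0.88, 0.98, 0.62 and 0.55 at 48 h and -0.58, 0.0036, -0.28 and -0.14 at 168 h. The arrays of 168 h lay below all earlier ones. The difference at 168 h against 48 h was -1.01 ± 0.12 (SE), a 2.01-fold fall with limma's adjusted p of 6.146e-07, and with the slide as a block it was -0.92. IGF1 hearts had -0.50, -0.17, -0.24 and -0.038 at 168 h and likewise lay below their own arrays of 24 and 48 h. Ndufab1 was thus lower at 168 h than at 48 h in both treatments, by -1.01 in vehicle hearts and -1.03 in IGF1 hearts, where 0 of 7 core subunits were called in either. All these Ndufab1 values rest on its only probe.

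The assembly factors were also followed over time in vehicle hearts. At 168 h against 48 h all 8 were below 0 with a median of -0.21, and 3 of 8 were called (Ndufaf8, Ndufaf5 and Ndufaf7), against 27.6% of all genes called lower. With 8 genes, that count does not set the assembly factors apart from all genes. Ndufaf8 had -0.24, -0.052, 0.24 and -0.042 at 168 h, against 0.029, 0.16, 0.48 and 0.54 at 48 h, and the groups overlapped. Its difference was -0.32 ± 0.11 (SE, limma's adjusted p = 0.0214). Ndufaf5 had 0.35, 0.80, 0.71 and 0.73 at 168 h, against 0.95, 0.94, 0.70 and 1.02 at 48 h. Replicate 3 of 48 h was inside the range of the 168 h arrays, and the difference was -0.25 ± 0.10 (SE, adjusted p = 0.0401). Ndufaf7 had 1.76, 2.10, 1.96 and 2.10 at 168 h, against 2.20, 2.29, 1.98 and 2.34 at 48 h, overlapping, with a difference of -0.22 ± 0.08 (SE, adjusted p = 0.0302). None of the 3 calls held in every setting. All 3 were lost with normexp and with only the groups compared, Ndufaf5 and Ndufaf7 also with quantile normalization and with no filter, and Ndufaf8 with array weights, where its difference was -0.13. Without single arrays Ndufaf8 was lost in 3 of 8 fits (vehicle replicate 3 or 4 of 48 h, or replicate 1 of 168 h left out), Ndufaf5 in 4 and Ndufaf7 in 5. The highest adjusted p over all settings was 0.332 for Ndufaf8, 0.181 for Ndufaf5 and 0.157 for Ndufaf7. At 168 h against 24 h, Ndufaf4 had the largest fall among the assembly factors, with 0.82, 1.55, 1.43 and 1.78 at 168 h against 2.01, 2.26, 2.11 and 2.23 at 24 h, a separated difference of -0.76 ± 0.20 (SE, adjusted p = 0.00231). The vehicle groups of 48 and 168 h shared slide 4 only, and there Ndufaf4, Ndufaf5, Ndufaf7 and Ndufaf8 differed by -0.47, -0.29, -0.24 and -0.58.

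The remaining named members had these levels at the later times. Ndufv1 had 6.46, 6.49, 6.59 and 6.51 in IGF1 and 6.47, 6.46, 6.25 and 6.80 in vehicle hearts at 48 h. At 168 h it had 6.31, 6.61, 6.60 and 6.81 in IGF1 and 6.39, 6.79, 6.65 and 6.84 in vehicle hearts. At both times the treatments overlapped. Ndufa4 had 5.58, 5.58, 5.68 and 5.77 in IGF1 and 5.65, 5.61, 5.46 and 5.83 in vehicle hearts at 48 h. At 168 h it had 5.45, 5.64, 5.70 and 5.79 in IGF1 and 5.31, 5.78, 5.70 and 5.86 in vehicle hearts, again overlapping. Ndufaf1 had 2.10, 2.21, 2.31 and 2.22 in IGF1 and 1.86, 2.35, 2.25 and 2.29 in vehicle hearts at 168 h, and the first array of each treatment was the lowest.

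**Figure D5:**
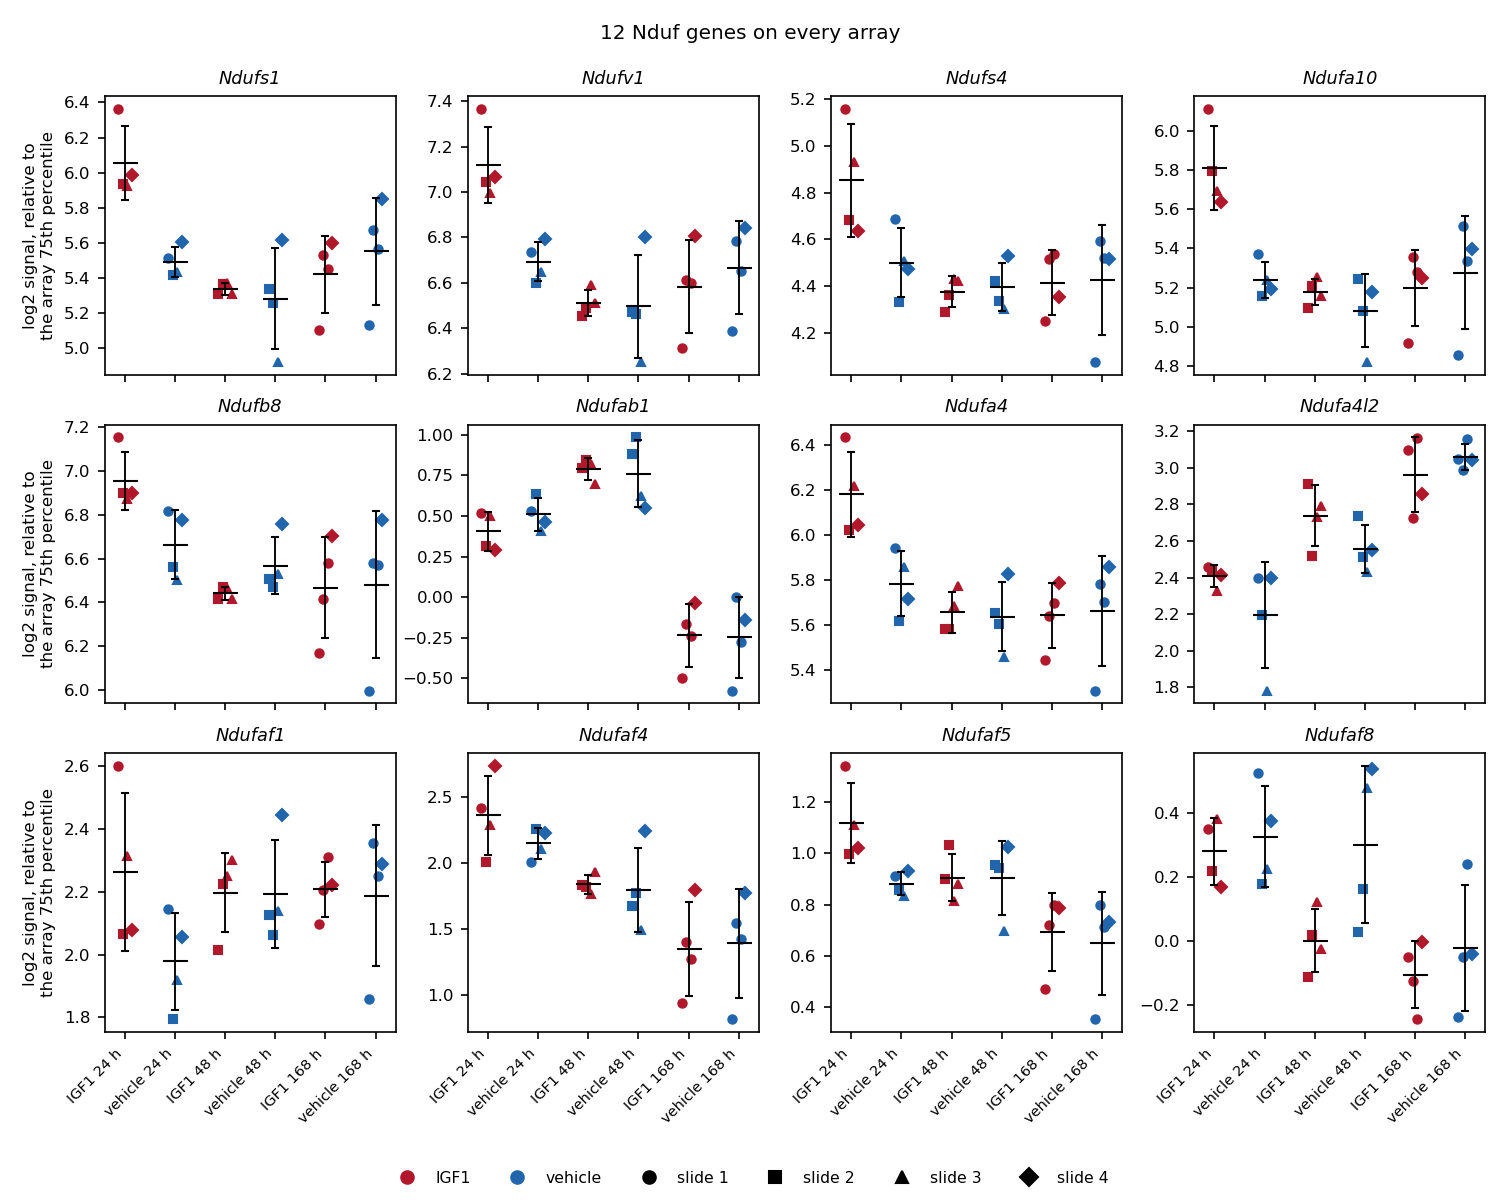
Log2 level of 12 members on each of the 24 arrays, by treatment and time, with symbols for slides and bars for group mean and SD. Ndufs1 and Ndufa10 are highest on the IGF1 arrays of 24 h, Ndufab1 is lowest in both treatments at 168 h, and Ndufa4l2 has its highest group means there.

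Beside these changes over time, the tissue's marker genes moved as well. In vehicle hearts 6 of 7 fibroblast markers were higher at 168 h than at 24 h, with a median difference of 2.60, and 5 of 7 neutrophil markers were lower, with a median of -5.50. Of the 12 cardiomyocyte markers 4 were higher and 0 lower, with a median of 0.09. Over all genes 29.2% were called higher and 31% lower, so the count of higher cardiomyocyte markers is near that share. The mean of the complex I subunits minus that of the cardiomyocyte markers was -0.76 ± 0.11 at 24 h, -0.91 ± 0.06 at 48 h and -1.17 ± 0.13 at 168 h in vehicle hearts (SD, n = 4 each). In IGF1 hearts it was -0.69 ± 0.05, -0.85 ± 0.07 and -1.13 ± 0.08 (SD, n = 4 each). Relative to the mean of these markers the subunits were thus lowest at 168 h in both treatments, without overlap with 24 h. In vehicle hearts the subunits' own mean was 5.68 at 24 h and 5.61 at 168 h, whereas the markers' mean was 6.44 and 6.78. The single markers' differences there ran unevenly, from -0.13 to 1.92. In IGF1 hearts the subunits' mean was 6.03 at 24 h and 5.55 at 168 h, and the markers' mean was 6.72 and 6.67. There too the single markers ran unevenly, from -0.62 to 1.78 with a median of -0.21, and 1 was called higher and 3 lower. The fall relative to the markers' mean thus does not hold to the same degree for every marker. Relative to complexes II to V the subunits were -0.82 ± 0.02, -0.83 ± 0.03 and -0.84 ± 0.01 in vehicle hearts in the same order of times (SD, n = 4 each). The part of cell composition in these changes was not tested.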

How the data were processed

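The authors deposited, for each of 24 arrays, the scanner output of Agilent Feature Extraction 12.0.3.2 from Agilent SurePrint G3 Mouse GE 8x60K arrays labelled with Cy3. Its processed signal is an intensity, background-corrected within the array and not scaled between arrays, per the file headers. A value table of 33957 probes, also deposited by the authors, holds log2 values centred per probe. On the log2 scale it equalled the values computed here up to 1 offset per probe and a shift of at most 0.047 per array, and the arrays used for centring are not stated in the sources.

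Control and outlier spots were dropped, log2 of the processed signal was taken minus the array's 75th percentile (533.7 to 897.5 on the linear scale), and spots of a probe were averaged. Probes not well above background on 4 or more arrays were removed. Accessions were matched to the RefSeq mouse gene table, which named 59.6% of 56605 probes; the brightest remaining probe stood for a gene. Members are the symbols that begin with Nduf. Members, roles and the lists of other genes were chosen with earlier results of these data known.

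Differences were fitted in R 4.3.3 by limma 3.58.1 (lmFit with 6 group means over 24 arrays, 18 residual degrees of freedom, eBayes, two-sided, Benjamini-Hochberg over 15871 genes, threshold 0.05). The method was tested on simulated data. Levels on every array are given for the 3 largest called differences in each direction in IGF1 against vehicle at 24 h and in vehicle 48 h against 24 h and 168 h against 48 h, and for Ndufs1, Ndufv1, Ndufs4, Ndufb8, Ndufa4, Ndufa4l2 and Ndufaf1; Ndufaf4 and Ndufaf7 were added after their values were seen, and 1 gene so chosen is not reported here, though counts and medians include it. From the lists of other respiratory genes and regulators, the 2 genes with the smallest p at 24 h are named; cell markers are given by counts and medians. Alternatives were normexp background correction (offset 50), quantile normalization, no filter, the mean of probes, slide or replicate number as a block, array weights, the authors' value table, only the groups compared, and each array left out. Deviations of same-numbered samples correlated above a set limit of 0.1 in all 4 pairs only for IGF1 against vehicle at 168 h (r of 0.286, 0.186, 0.192 and 0.502). The results given for that comparison still come from the fit without pairs, and the replicate number was a block only in an alternative.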

Additional observations from a re-analysis of the deposited data

Results flagged for a closer look

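Of the 90 sets of 4 arrays examined for a single distant array, 5 held one, and chance flags about 1 in 20 groups. Ndufs1 stood at 6.36 on the first IGF1 array of 24 h, with the other 3 between 5.93 and 5.99. Ndufb8 was 7.15 on that array, with the others between 6.87 and 6.90, and the mean of the core subunits was 6.54 there, against 6.15 to 6.18 on the others. Without this array 2 members were called between IGF1 and vehicle at 24 h, and the median difference was 0.25. On the first vehicle array of 168 h, Ndufs4 was at 4.08 (the others between 4.51 and 4.59) and the mean of the assembly factors was 0.76 (the others between 1.16 and 1.23).

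By limma's test of the difference of differences, the effect of IGF1 at 168 h minus that at 24 h was called for 4 of 46 members. These were Ndufs1 (-0.69), Ndufa10 (-0.65), Ndufa2 (-0.45) and Ndufa1 (-0.40), against 4.69% of all genes called lower. Each was higher in IGF1 hearts at 24 h and not called at 168 h. In the same order, the calls were lost in 9, 6, 0 and 11 of the 16 fits without a single array. All 4 were lost when only the groups compared were fitted.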

How the results depend on the processing

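The median difference of the members kept its sign in every alternative for IGF1 against vehicle at 24 h and for IGF1 hearts at 48 h and at 168 h against 24 h; the number of called members moved more. For IGF1 against vehicle at 24 h (22 called), 10 passed with no filter and 3 with only the groups compared. For vehicle 48 h against 24 h (1), it was 0 with no filter, 2 with the slide block, 3 with array weights and 0 with only the groups compared. For vehicle 168 h against 48 h (5), it was 2 with normexp, 22 with quantile, 3 with no filter and 2 with only the groups compared, and for 168 h against 24 h (7), 16 with quantile and 4 with only the groups compared. In IGF1 hearts, 168 h against 48 h (3) gave 12 with quantile and 8 with array weights, and 168 h against 24 h (40) gave 21 with quantile. The change of the IGF1 effect by 48 h (0) gave 2 with array weights, and that by 168 h (4) gave 8 with quantile, 1 with no filter, 10 with the slide block, 19 with array weights, 8 with the authors' table and 0 with only the groups compared. No filter tests more genes and only the groups compared uses fewer arrays; otherwise the cause was not tested.

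With single arrays left out, calls ranged from 2 to 24 for IGF1 against vehicle at 24 h, stayed at 0 at 48 and 168 h, and ranged from 0 to 2, 3 to 6 and 4 to 9 for vehicle 48 against 24, 168 against 48 and 168 against 24 h. In IGF1 hearts the same 3 gave 31 to 36, 2 to 3 and 35 to 41, and the changes of effect by 48 and 168 h gave 0 to 1 and 1 to 34. Of the 22 calls at 24 h, 2 were lost under none of these and 1 held in every alternative.

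Signs turned as follows. The members' median became 0.16 (quantile) for vehicle 168 h against 24 h, and -0.14 for IGF1 and -0.11 for vehicle hearts (slide block) at 168 h against 48 h. Without single arrays it lay between -0.17 and 0.020 for IGF1 against vehicle at 168 h, -0.056 and 0.12 for vehicle 168 h against 48 h, -0.15 and 0.051 for vehicle 168 h against 24 h, and -0.0091 and 0.090 for IGF1 168 h against 48 h. At 24 h, Ndufaf2 became 0.0063 with normexp, 0.042 with array weights, 0.0060 with the authors' table and lay between -0.061 and 0.064 without single arrays. Ndufaf8 became 0.00697 with array weights and lay between -0.096 and 0.020 without single arrays (0.020 without the first vehicle array), and Ndufb6 lay between -0.040 (without the first IGF1 array) and 0.29. Ndufa12 became 0.0056 with quantile for vehicle 168 h against 24 h.

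With the replicate number as a block, 23 members were called at 24 h. Same-numbered samples correlated at 0.134, -0.050, 0.107 and 0.081 there and at 0.103, 0.066, -0.005 and 0.112 at 48 h. At neither time did all 4 pairs pass the limit of 0.1. Same-numbered arrays of 24 h also shared a slide, as did those of replicates 1, 2 and 3 at 48 h. The block changed no call at 168 h (0 members).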
